A study of Mus musculus with 11 samples.

Results

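The 10 genes described here act in brain glycogen and lactate metabolism, and their transcripts were measured in the cortex of 22 mice: Ppp1r3c, Gys1, Gbe1, Pygb and Pygm of the glycogen branch, and Ldha, Ldhb, Slc16a1, Slc16a3 and Slc16a7 of the lactate branch. They were chosen by name, with earlier results of these data known. Their probes were found by matching the accession that the array gives for each probe to these gene symbols. All 10 were measured, by 14 probes, among 26082 features (genes, or accessions without a symbol) kept on the arrays. Ldha has 3 probes, Gys1 and Slc16a3 have 2 each and the other 7 genes have 1.

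The study asked how cortex responds to a freezing injury when astrocytes carry a constantly active form of the transcription factor CREB. Right hemisphere cortex of C57/Bl6J mice aged 5 to 7 months was taken from 4 groups: 6 intact wild-type mice (WT), 5 intact transgenic mice (T), 5 lesioned wild-type mice (WTC) and 6 lesioned transgenic mice (TC). The transgenic mice are GFA2-tTa/TetO-VP16-CREB, in which a GFAP promoter fragment drives the tTa activator in astrocytes and tTa in turn drives VP16-CREB, so other cortical cells were not targeted. Lesioned mice had a dry ice pellet held on the brain surface for 30 s and were killed 3 days later. The labels describe no sham operation and no group with 1 transgene alone.

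Each of 11 Agilent arrays (A to F on slide 1, I to M on slide 2) carried RNA of 1 mouse in Cy5 and of another in Cy3, each mouse being on a single array per the labels, so p-values here measure the spread between animals. The series' design text describes repeated hybridisation of samples, which these labels do not show. Between 56.6% and 65.3% of spots per array and channel were well above background, and 0 were saturated. All 14 probes were well above background in 22 of 22 channels. Slc16a1 and Slc16a7 were close to the limit, with a median signal of 2.75 and 2.88 times background, against 18.9 times or more for the brightest probe of each of the other 8 genes. Slide and group were partly mixed: slide 1 held 6 WT, 3 T, 2 WTC and 1 TC mice, and slide 2 held 2 T, 3 WTC and 5 TC mice.

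Some labels and libraries bear on the results. On arrays I, J and K the labels of the Cy3 channel contradict the titles, which were followed here. The title calls the Cy3 mouse of array I TC and that channel's label T. This mouse had a lesion-like astrocyte marker level (13.39, against 12.62 to 12.93 in the intact mice) beside an intact-like microglia marker level (11.34, against 11.34 to 11.94). The Cy3 mouse of array J, T by title and TC by label, lay within both intact ranges (12.85 and 11.85). That of array K, TC by title and T by label, lay above both (13.28 and 12.93). The 4 mice of arrays K and M, 2 WTC and 2 TC, also stood apart: 141 of 25965 features (0.543%) were more than 2 log2 units higher in them than in the 7 other lesioned mice, and 128 of these were above every other mouse. Of the differences and correlations that these mice move, some are given below with and without them.

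Glycogen is the brain's only sizeable carbohydrate store and lies almost wholly in astrocytes. Glycogen synthase (Gys1) and the branching enzyme (Gbe1) build it, the brain and muscle glycogen phosphorylases (Pygb, Pygm) break it down, and Ppp1r3c (protein targeting to glycogen, PTG) brings protein phosphatase 1 to the glycogen particle, where it activates synthase and inactivates phosphorylase. Glucose units freed from glycogen can be turned into lactate by lactate dehydrogenase, a tetramer of A (Ldha) and B (Ldhb) subunits, and lactate leaves or enters cells through the monocarboxylate transporters MCT1 (Slc16a1), MCT2 (Slc16a7, the high-affinity neuronal form) and MCT4 (Slc16a3, a low-affinity form suited to export).

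Promoter windows of the genes are shown because the transgene encodes an active CREB, which binds the motif TGACGTCA or its shorter form TGACG, and because PTG, LDHA and MCT4 are known targets of hypoxia-inducible factors, whose element has the core ACGTG. Each window is 300 bases of RefSeq sequence (mouse build GRCm38.p6), from upstream of the annotated start to 50 bases after it, searched on both strands. Capitals mark matches, which on the opposite strand read as the reverse complement. The short CREB form lies within the full one, and the CREB and hypoxia motifs can share bases. The first 3 are of the genes that differed between groups, and Ldha is added after the search because its window holds the full CREB motif.

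Ppp1r3c (chr19:36736555-36736854, minus strand): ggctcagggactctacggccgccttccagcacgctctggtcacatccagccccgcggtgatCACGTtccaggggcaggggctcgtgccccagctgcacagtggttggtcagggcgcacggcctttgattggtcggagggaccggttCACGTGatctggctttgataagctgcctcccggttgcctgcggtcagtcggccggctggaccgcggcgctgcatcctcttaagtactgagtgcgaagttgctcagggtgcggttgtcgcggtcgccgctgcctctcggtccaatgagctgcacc
Ldhb (chr6:142507908-142508207, minus strand): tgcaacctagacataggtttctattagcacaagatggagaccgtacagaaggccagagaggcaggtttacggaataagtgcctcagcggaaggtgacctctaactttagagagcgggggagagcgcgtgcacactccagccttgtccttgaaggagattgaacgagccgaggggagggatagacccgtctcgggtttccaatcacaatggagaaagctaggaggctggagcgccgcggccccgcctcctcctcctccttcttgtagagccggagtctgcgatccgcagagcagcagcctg
Slc16a3 (chr11:120948817-120949116, plus strand): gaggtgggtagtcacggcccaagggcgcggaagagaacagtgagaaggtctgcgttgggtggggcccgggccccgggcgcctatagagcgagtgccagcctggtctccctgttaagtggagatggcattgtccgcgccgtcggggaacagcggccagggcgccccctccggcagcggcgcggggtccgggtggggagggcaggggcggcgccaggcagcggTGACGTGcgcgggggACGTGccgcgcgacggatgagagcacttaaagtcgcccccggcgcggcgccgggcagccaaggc
Ldha, the first of its 2 starts (chr7:46845554-46845853, plus strand): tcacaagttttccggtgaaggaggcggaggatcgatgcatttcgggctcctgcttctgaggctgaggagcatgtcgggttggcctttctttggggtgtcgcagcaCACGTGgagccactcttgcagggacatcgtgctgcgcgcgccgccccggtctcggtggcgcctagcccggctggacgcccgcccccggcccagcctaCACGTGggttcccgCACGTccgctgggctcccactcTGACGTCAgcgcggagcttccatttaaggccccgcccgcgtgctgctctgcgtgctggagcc

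The Ppp1r3c window holds 3 ACGTG matches, of which a pair forms the palindrome CACGTG, and no TGACG. The Slc16a3 window holds 1 TGACG and 2 ACGTG matches. In the Ldha window there are 1 TGACGTCA, counted as 2 TGACG, and 5 ACGTG matches. None of the motifs is in the Ldhb, Gys1 or Gbe1 windows. Among the rest, Pygb holds 1 of each short motif, Pygm 1 ACGTG, Slc16a1 3 ACGTG and the other Ldha start 1 TGACG, while no entry was matched for Slc16a7. Over all 32851 promoter windows of the same length, 1.79% hold TGACGTCA, 20.8% hold TGACG and 19.6% hold ACGTG, so the short motifs are common and a match is not evidence of binding.

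Levels below are normalized log2 channel intensities of single mice, and differences are log2 ratios with their standard error. The fits were made in 2 ways with limma and Benjamini-Hochberg adjustment over all features at a threshold of 0.05, both two-sided. The ratio fit, the planned main test, uses only the log ratio within each array, and the separate-channel fit uses both channels of every array as linked measurements of single mice. In the ratio fit with all arrays none of the 10 genes passed in any of the 5 comparisons. That fit called 0.023% of features for the lesion in wild type and 0 in the other comparisons, so it separates few genes of any kind. At an unadjusted p under 0.05 it had 1 of the 10 genes for WTC minus WT (19.6% of all features), 1 for TC minus T (11.9%), 0 for T minus WT (2.92%), 1 for TC minus WTC (14.8%) and 3 for the difference between the lesion responses (5.37%). In the separate-channel fit these numbers were 4 (41.2%), 3 (24.8%), 1 (2.14%), 1 (16.7%) and 3 (6.15%). Calls named below are those of the separate-channel fit unless the ratio fit is named.

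**Figure D1:**
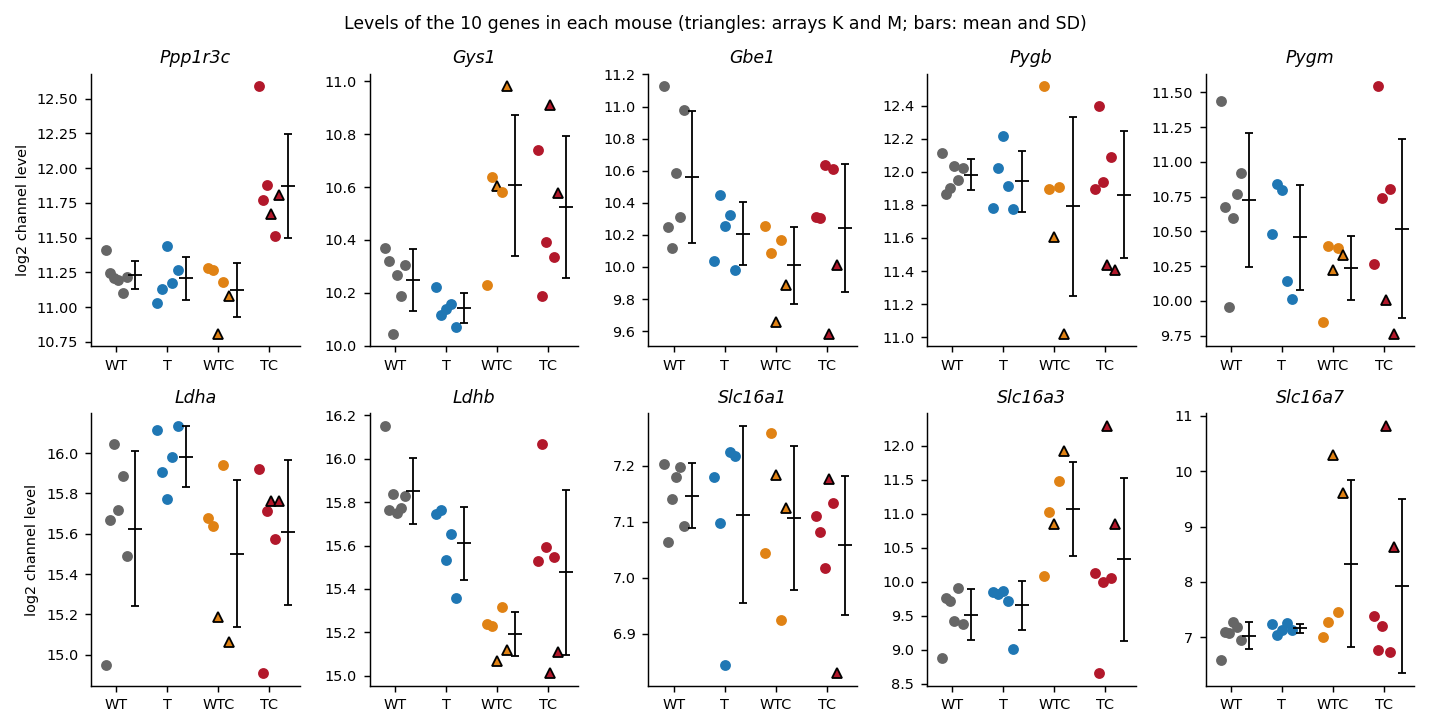
Normalized log2 level (vertical axis) of each of the 10 genes in each of 22 mice, by group (WT, T, WTC, TC); each point is 1 mouse, triangles are the mice of arrays K and M, and bars are the mean and SD. Ppp1r3c lies above all other mice in TC, Ldhb is low and Slc16a3 high in WTC, and Slc16a7 is high in the 4 mice of arrays K and M.

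Ppp1r3c, the glycogen-targeting subunit of protein phosphatase 1, stood at one level in intact mice of both genotypes and in lesioned wild-type mice, and was higher in lesioned transgenic mice. Its log2 level in the 6 WT mice had a lowest value of 11.10, a median of 11.22 and a highest of 11.41. The 5 T mice had 11.03, 11.13, 11.44, 11.17 and 11.26. The 5 WTC mice had 11.28, 11.27, 10.81, 11.18 and 11.08. These 3 groups overlap throughout, with means of 11.23 ± 0.10 (SD, n = 6), 11.21 ± 0.16 (SD, n = 5) and 11.12 ± 0.19 (SD, n = 5). The 6 TC mice had a lowest value of 11.51, a median of 11.79 and a highest of 12.59, with a mean of 11.87 ± 0.37 (SD, n = 6). No TC mouse reached down into any other group. Of 25965 features, 8 (0.0308%) had all 6 TC mice above all 16 others; besides Ppp1r3c these were Dgkk, 1700003F12Rik, Taf13, Tinf2, Kdelr3, Timm17b and Pax1, and the gap of Ppp1r3c, 0.07 log2 units between the lowest TC and the highest other mouse, ranked 4 among them.

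Within transgenic mice, Ppp1r3c rose after the lesion by 0.67 ± 0.13 log2 (SE), or 1.60-fold. This passed in the separate-channel fit (adjusted p = 0.0068, limma), which called 7.35% of features, 4.71% as higher, and the ratio fit gave 0.73 ± 0.16 (adjusted p = 0.23). Among lesioned mice it was higher in transgenic than in wild-type cortex by 0.74 ± 0.13, or 1.67-fold. This also passed in the separate-channel fit (adjusted p = 0.02), which called 0.142% of features, 0.116% as higher, and the ratio fit gave 0.74 ± 0.14 (adjusted p = 0.13). All 6 TC mice lay above all 5 T mice, which 2.08% of features did, and above all 5 WTC mice, which 0.208% of features did. It was the only one of the 10 genes called between lesioned transgenic and lesioned wild-type mice.

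The comparisons that leave out the TC mice were near 0 for Ppp1r3c. In wild type, the lesion difference was -0.03 ± 0.13 log2 in the separate-channel fit (adjusted p = 0.87) and 0.10 ± 0.16 in the ratio fit. Between intact genotypes it was 0.03 ± 0.13 (adjusted p = 1) and 0.12 ± 0.14. The difference between the lesion responses of the genotypes was 0.71 ± 0.18 log2 (unadjusted p = 7e-04, limma) in the separate-channel fit and 0.62 ± 0.18 (unadjusted p = 0.0074, limma) in the ratio fit, and missed the threshold in both (adjusted p = 0.76 and 0.81), as did every other feature of both fits. So a genotype-dependent lesion response of Ppp1r3c was not shown at this threshold.

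**Figure D2:**
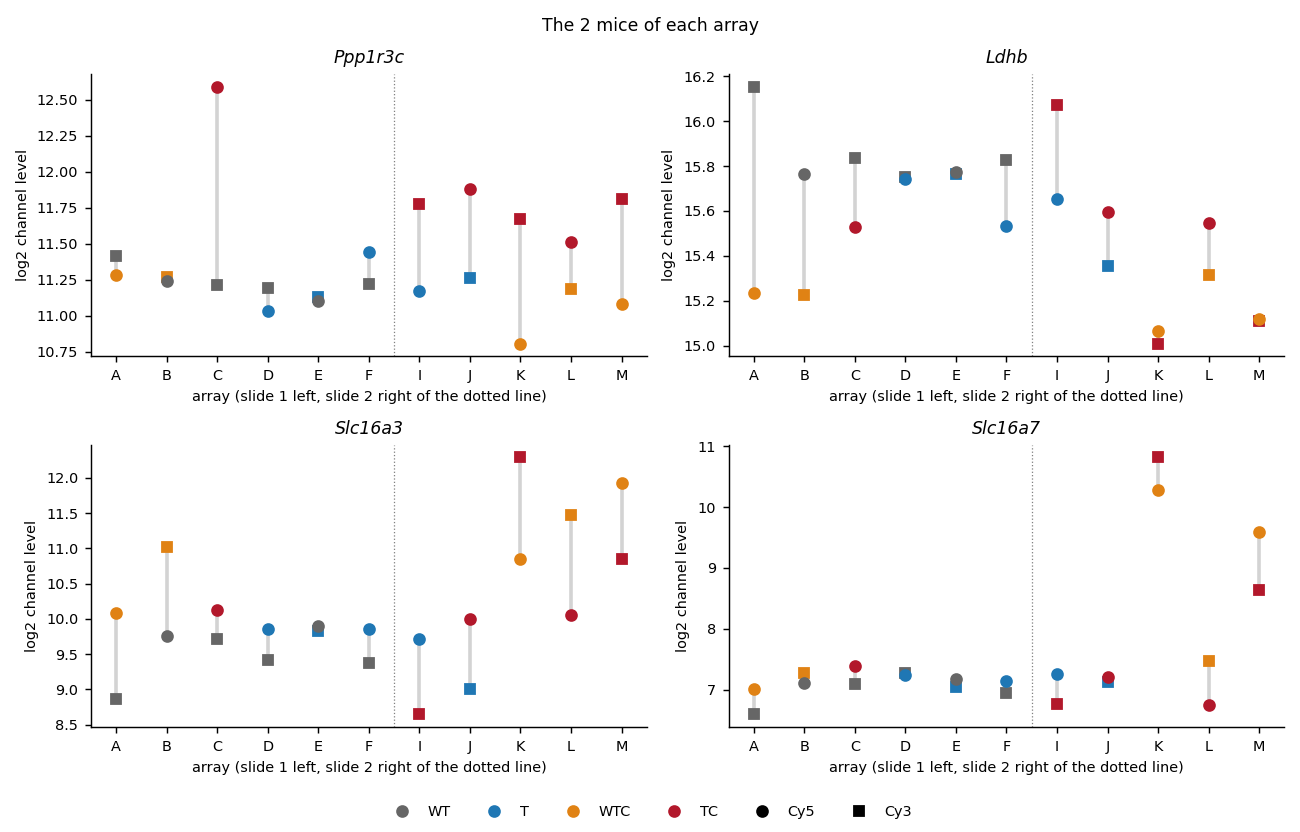
Normalized log2 level (vertical axis) of Ppp1r3c, Ldhb, Slc16a3 and Slc16a7 in both mice of each array (horizontal axis, slide 1 left and slide 2 right of the dotted line); circles are Cy5 and squares Cy3, coloured by group, and a line joins the mice of an array. On all 6 arrays with a TC mouse, that mouse has the higher Ppp1r3c level.

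Inside single arrays, the mice of a pair are measured on the same spot. The Ppp1r3c log2 ratio was 0.48 on array I and 0.74 on array J for TC over T. For TC over WTC it was 0.74 on K, 0.46 on L and 0.60 on M. Array C, with TC over WT, had the highest ratio, 1.5, so all 6 of 6 arrays with a TC mouse were positive. On the arrays without one, the ratio was -0.00 and -0.10 for WTC over WT (A, B) and -0.04, -0.10 and 0.35 for T over WT (D, E, F).

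The TC mouse of array C, the only TC mouse on slide 1, had the highest Ppp1r3c level of all mice (12.59, with the other 5 at 11.51 to 11.88). Without that array, the lesion difference in transgenic mice was 0.53 ± 0.09 log2 (adjusted p = 0.0068, 4.81% of features called). The genotype difference in lesioned mice was then 0.61 ± 0.09 (adjusted p = 0.014, 0.0539% of features called). On slide 2 alone, with 5 TC mice, these were 0.55 ± 0.12 (adjusted p = 0.15) and 0.64 ± 0.10 (adjusted p = 0.44), where 0 features passed, and on slide 1 alone both were 1.38 and rest on that 1 TC mouse (3.87% and 0.585% of features called; the difference of responses, also 1.38, passed there with 0.327% of features). With slide as a block they were 0.77 ± 0.12 (adjusted p = 0.0031) and 0.79 ± 0.12 (adjusted p = 0.0096). Without the Cy3 mouse of array I they were 0.70 ± 0.14 (adjusted p = 0.003, 12.6% of features called) and 0.76 (adjusted p = 0.019, 0.177% of features called). Without the 4 mice of arrays K and M they were 0.72 ± 0.15 (adjusted p = 0.02, 4.78% of features called) and 0.68 ± 0.18 (adjusted p = 0.036, 7.43% of features called). With groups taken from the channel labels, which move 3 mice between T and TC, the lesion difference in transgenic mice was 0.47 ± 0.20 (adjusted p = 1) and the genotype difference 0.73 ± 0.19 (adjusted p = 0.14). Without array J the former missed the threshold (0.69, adjusted p = 0.056), and without B or M the latter did (0.77 and 0.74, adjusted p = 0.073 and 0.093), as without I, J and K together (0.75, adjusted p = 0.078).

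In the authors' deposited table, the Ppp1r3c values are 0.70 for TC minus T (adjusted p = 0.02), 0.88 for TC minus WTC (adjusted p = 0.0055) and -0.13 for WTC minus WT. The table states no log base. All these comparisons share groups of mice, and TC enters both calls.

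Gys1, the glycogen synthase gene, had a higher mean in lesioned than in intact mice of both genotypes and did not pass. Its levels were 10.04, 10.29 and 10.37 (lowest, median, highest) in WT and 10.22, 10.11, 10.14, 10.16 and 10.07 in T. In lesioned mice they were 10.23, 10.64, 10.60, 10.58 and 10.98 in WTC and 10.19, 10.48 and 10.91 (lowest, median, highest) in TC. Lesioned and intact mice overlap through 1 mouse in each genotype, that of array A in WTC and the Cy3 mouse of array I in TC. The lesion difference was 0.32 ± 0.12 log2 in wild type (adjusted p = 0.056) and 0.35 ± 0.12 in transgenic mice (adjusted p = 0.08) in the separate-channel fit, and 0.24 ± 0.17 and 0.26 ± 0.17 in the ratio fit. Without the Cy3 mouse of array I both passed, at 0.35 (adjusted p = 0.029, 32.3% of features called) and 0.43 (adjusted p = 0.024, 12.6% of features called). Leaving out array A also brought both past the threshold (0.46, adjusted p = 0.012, and 0.37, adjusted p = 0.037), and leaving out K the wild-type one (0.33, adjusted p = 0.045). Without array A, 30.4% of features were called in wild type and 10.9% in transgenic mice. The dimmer of the 2 Gys1 probes gave -0.10 ± 0.11 in wild type and 0.22 ± 0.11 in transgenic mice. So for the wild-type lesion it lay within 1 standard error of 0 and did not show the difference of the brighter probe.

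The branching enzyme gene Gbe1 had a lower mean in lesioned than in intact wild-type mice and did not pass. WT mice had 10.12, 10.45 and 11.13 (lowest, median, highest) and WTC mice 10.25, 10.09, 9.66, 10.17 and 9.89. T mice had 10.04, 10.45, 10.25, 10.32 and 9.98 and TC mice 9.58, 10.31 and 10.64 (lowest, median, highest). The 2 highest values, 11.13 and 10.98, were of WT mice, and the 2 lowest, 9.58 and 9.66, were of both mice of array K. The lesion difference in wild type was -0.50 ± 0.18 log2 in the separate-channel fit (adjusted p = 0.051) and -0.35 ± 0.21 in the ratio fit (adjusted p = 0.39). Without the 4 mice of arrays K and M it was -0.42 ± 0.18 (adjusted p = 0.1). It passed without array C (-0.58, adjusted p = 0.040, 20.8% of features called) or E (-0.58, adjusted p = 0.041, 18.2% of features called). Between intact genotypes it was -0.37 ± 0.18 and -0.39 ± 0.19, and the lesion response differed between genotypes by 0.62 ± 0.24 (unadjusted p = 0.019, adjusted p = 0.76, limma).

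The phosphorylase genes did not pass in any comparison. Pygb, the brain form, had its widest spread in lesioned mice: 11.87 to 12.12 in WT, 11.77 to 12.22 in T, 11.02 to 12.52 in WTC and 11.41 to 12.40 in TC. The 4 lowest of all 22 values were those of the 4 mice of arrays K and M, whose mean differed by -0.72 log2 from that of the 7 other lesioned mice. Its lesion difference in wild type was -0.10 ± 0.18 with all mice and 0.13 ± 0.13 without these 4, in fits of the same form, neither past the threshold. The ratio fit with all arrays gave 0.16 ± 0.14, of the other sign. For the lesion in transgenic mice Pygb had 0.27 ± 0.14 in the ratio fit (adjusted p = 0.47, limma) and 0.02 ± 0.18 in the separate-channel fit. Pygm, the muscle form, which astrocytes also make, lay between 9.96 and 11.44 in WT, 10.01 and 10.84 in T, 9.85 and 10.40 in WTC and 9.76 and 11.54 in TC. Its lesion difference was -0.44 ± 0.28 in wild type and 0.21 ± 0.27 in transgenic mice in the separate-channel fit. The highest Pygm level of all, 11.54, was of the Cy3 mouse of array I, and without it these differences were -0.51 ± 0.23 (adjusted p = 0.097) and -0.064 ± 0.25 (adjusted p = 0.88). Without the 4 mice of arrays K and M, TC minus WTC was 0.89 ± 0.30 (adjusted p = 0.082), against 0.32 ± 0.27 with all mice. In the ratio fit the Pygm lesion difference was -0.25 ± 0.39 in wild type and 0.50 ± 0.38 in transgenic mice.

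**Figure D3:**
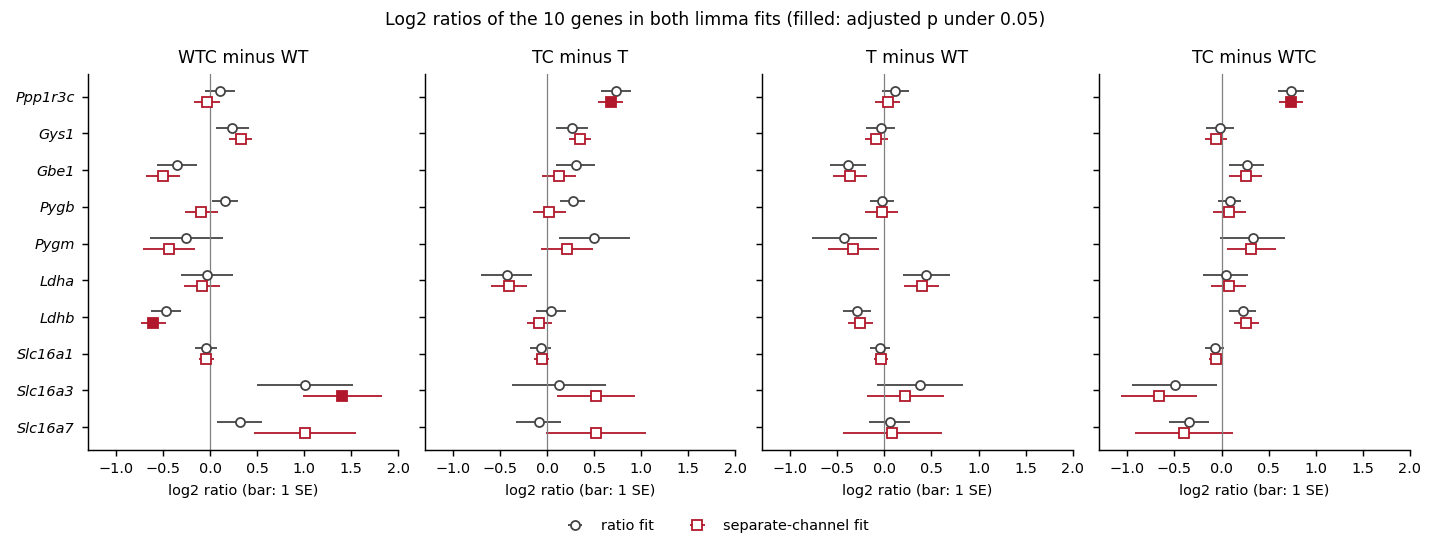
Log2 ratio (horizontal axis, with bars of 1 SE) of each of the 10 genes in 4 comparisons, from the ratio fit (circles) and the separate-channel fit (squares); filled symbols have an adjusted p under 0.05. No circle is filled, and the filled squares are Ldhb and Slc16a3 for WTC minus WT, and Ppp1r3c for TC minus T and for TC minus WTC.

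Ldhb, the B subunit of lactate dehydrogenase, which predominates in neurons, fell after the lesion in wild-type cortex. WT mice had log2 levels of 15.75, 15.80 and 16.15 (lowest, median, highest). WTC mice had 15.24, 15.23, 15.07, 15.32 and 15.12. All 5 WTC mice lay below all 6 WT mice, which 7.39% of features did. The difference was -0.60 ± 0.13 log2, or 1.52-fold lower. It passed in the separate-channel fit (adjusted p = 0.0039, limma), which called 26.5% of features, 14.3% as higher and 12.2% as lower, while the ratio fit gave -0.47 ± 0.16 (adjusted p = 0.17). It kept its call under all 24 other settings of the separate-channel fit, between -0.53 and -0.78, among them slide as a block (-0.56 ± 0.15, adjusted p = 0.02) and slide 1 alone (-0.66 ± 0.09, adjusted p = 0.0012).

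In transgenic mice, Ldhb did not separate lesioned from intact cortex. T mice had 15.74, 15.76, 15.53, 15.65 and 15.36, and TC mice 15.01, 15.54 and 16.07 (lowest, median, highest). TC covered the whole T range, with the mouse of array I highest and those of K (15.01) and M (15.11) lowest. The lesion difference was -0.08 ± 0.13 in the separate-channel fit and 0.04 ± 0.16 in the ratio fit. Between intact genotypes it was -0.26 ± 0.13 (adjusted p = 1), and among lesioned mice TC minus WTC was 0.26 ± 0.13 (adjusted p = 0.3). The test of the difference between the lesion responses gave 0.52 ± 0.18 (unadjusted p = 0.0081, adjusted p = 0.76, limma). With the 4 mice of arrays K and M left out, a setting chosen after their levels were seen, that difference was 0.71 ± 0.15 (adjusted p = 0.033) and TC minus WTC was 0.50 ± 0.13 (adjusted p = 0.03); these settings called 1.89% and 7.43% of all features, against 0 and 0.119% with all mice in a fit of the same form. Without the Cy3 mouse of array I the difference was 0.41 ± 0.14 (adjusted p = 0.99, 0.0077% of features called).

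Ldha, the A subunit, which predominates in astrocytes, did not pass in any comparison. WT mice had 14.95, 15.69 and 16.05 (lowest, median, highest), T mice 16.11, 15.91, 15.77, 15.98 and 16.13, WTC mice 15.68, 15.64, 15.19, 15.94 and 15.06, and TC mice 14.91, 15.74 and 15.92 (lowest, median, highest). T mice had the highest mean and the narrowest spread, 15.98 ± 0.15 (SD, n = 5), and overlap with each other group. The other means were 15.63 in WT, 15.50 in WTC and 15.61 in TC. T minus WT was 0.40 ± 0.19 (unadjusted p = 0.0496, limma) in the separate-channel fit and 0.45 ± 0.25 in the ratio fit. The dimmer probes gave 0.42 ± 0.21 and 0.33 ± 0.18 in the separate-channel fit. The lesion difference in transgenic mice was -0.40 ± 0.19 (adjusted p = 0.2) in the separate-channel fit and -0.43 ± 0.27 (adjusted p = 0.55) in the ratio fit, and in wild type -0.09 ± 0.19 and -0.03 ± 0.27. The dimmest Ldha probe gave 0.41 ± 0.18 for the lesion in wild type (adjusted p = 0.098), where the brightest lay within 1 standard error of 0.

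Slc16a3, the lactate exporter MCT4, rose after the lesion in wild-type cortex. WT mice had 8.87, 9.57 and 9.91 (lowest, median, highest), and WTC mice 10.09, 11.02, 10.84, 11.48 and 11.92. All 5 WTC mice lay above all 6 WT mice, which 9.23% of features did. The difference was 1.40 ± 0.42 log2, or 2.65-fold, by the separate-channel fit (adjusted p = 0.021, limma) and 1.01 ± 0.51, or 2.01-fold, by the ratio fit (adjusted p = 0.31). On the 2 arrays that pair these groups, the ratio of WTC over WT was 1.03 (A) and 1.45 (B). Its other probe gave 1.45 ± 0.45 (adjusted p = 0.026). With slide as a block it missed the threshold (1.31 ± 0.47, adjusted p = 0.071), as it did without array B (1.47, adjusted p = 0.073), L (1.21, 0.072) or M (1.23, 0.057); without the 4 mice of K and M it was 1.37 ± 0.29 (adjusted p = 0.0033), and on slide 1 alone the ratio fit gave 1.24 ± 0.14 (adjusted p = 0.018, 8.28% of features called).

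In lesioned transgenic mice the Slc16a3 levels spread over the range of all groups. T mice had 9.85, 9.82, 9.86, 9.72 and 9.01. TC mice had 10.13 (array C), 8.65 (I), 9.99 (J), 12.29 (K), 10.06 (L) and 10.84 (M). The lowest and the highest of all 22 mice were both TC, so TC overlaps with both T and WTC. The lesion difference in transgenic mice was 0.52 ± 0.41 (adjusted p = 0.45) in the separate-channel fit and 0.13 ± 0.50 in the ratio fit, and the responses of the genotypes differed by -0.89 ± 0.55 (adjusted p = 0.77). TC minus WTC was -0.66 ± 0.40 (adjusted p = 0.39), but the 3 arrays that measure it directly disagreed in sign, with 1.64 on K, -1.61 on L and -0.89 on M. Without array K it was -1.22 ± 0.31 (adjusted p = 0.044), and without the 4 mice of K and M -1.35 ± 0.34 (adjusted p = 0.029, 7.43% of features called); the authors' deposited table gives -1.40 (adjusted p = 0.01).

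Slc16a7, the neuronal transporter MCT2, was dim in 18 mice, with levels of 6.60 to 7.46. In the other 4 it was 10.29 in WTC and 10.82 in TC on array K, and 9.60 in WTC and 8.64 in TC on array M. These 4 are all the mice of those arrays; the 7 other lesioned mice had 6.74 to 7.46, close to the 6.60 to 7.28 of the intact mice. Of all features, 73 had a larger excess in these 4 mice than the 2.72 log2 of Slc16a7. The 2 genes whose levels followed it most closely were Cftr (r = 0.985 over 22 mice) and Notch1 (r = 0.984), and without these 4 mice the correlations were 0.414 and 0.639, with Cftr at 9.20 and 8.93 on array K and 8.19 and 7.35 on array M. With all mice, its lesion difference in wild type was 1.01 ± 0.54 (adjusted p = 0.17) in the separate-channel fit and 0.31 ± 0.24 in the ratio fit, and without these 4 mice it was 0.27 ± 0.14 (adjusted p = 0.19). The authors' deposited table lists 1.81 for WTC minus WT and -1.44 for TC minus WTC (adjusted p = 0.09).

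Slc16a1, the transporter MCT1 of glia and endothelium, stayed between 6.83 and 7.26 in all 22 mice. Every fitted difference was within 0.072 log2 of 0 in both fits, with standard errors of at most 0.13. Its signal was under 3 times background, where the offset added in background correction compresses ratios.

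As a group, the 10 genes did not move one way. For the lesion in wild type, 1 was called higher and 1 lower, and the median log2 ratio was -0.06 in the separate-channel fit, against -0.03 over all features. For the lesion in transgenic mice 1 was called higher and 0 lower, with a median of 0.16 against -0.02. For genotype among intact mice none was called in the separate-channel fit, nor was any other feature. The median of TC minus WTC was 0.08 against -0.01. The share of the 10 called for the lesion in wild type, 2 of 10, is near the 26.5% of all features, and that in transgenic mice, 1 of 10, is near the 7.35% of all features.

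The other genes of both branches were counted from lists of pathway members. Of 29 other glycogen gene symbols, which include both Gyg and Gyg1, 28 had a probe and 27 passed the filter on dim probes. In the separate-channel fit, 5 rose and 4 fell after the lesion in wild type, and the list's median was -0.04 log2. These 9 of 27 stand beside 26.5% of all features called and an all-feature median of -0.03. Genes of breakdown and priming were among those higher: Phkg1, the catalytic subunit of muscle phosphorylase kinase, by 0.63 ± 0.10 (adjusted p = 0.00053), and Gyg, the glycogenin that primes new particles, by 0.48 ± 0.08 (adjusted p = 0.00061). Lower were Gsk3a, a kinase that inhibits glycogen synthase (-0.43 ± 0.09, adjusted p = 0.0026), the phosphatase 1 targeting subunits Ppp1r3g (-0.82 ± 0.19, adjusted p = 0.0051) and Ppp1r3f (-0.60 ± 0.16, adjusted p = 0.013), and the catalytic subunit Ppp1cb (-0.33 ± 0.08, adjusted p = 0.0092). Thus Ppp1r3g and Ppp1r3f, which share the targeting role of Ppp1r3c, fell in the comparison in which Ppp1r3c was near 0.

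After the lesion in transgenic mice, 1 of these 27 rose and 3 fell, where 7.35% of all features were called. Gyg rose by 0.30 ± 0.08 (adjusted p = 0.03). Ppp1r3g fell by 1.01 log2 (SE 0.19, adjusted p = 0.0052), and Ppp1r3e, a further targeting subunit, fell by 0.38 (SE 0.10, adjusted p = 0.031). Gsk3a fell by 0.36 (SE 0.09, adjusted p = 0.02). So among the targeting subunits in this comparison Ppp1r3c was called higher and Ppp1r3g and Ppp1r3e lower. Between lesioned genotypes 0 of 27 passed, the smallest p being that of Phkg1 (-0.47 ± 0.10, adjusted p = 0.059), followed by Ppp1cb (0.24, 0.18) and Phkg2 (-0.19, 0.25). Between intact genotypes 0 of 27 passed; Ppp1r3e (0.26), Phkg2 (-0.13) and Gsk3b (-0.15) had the smallest p, each with an adjusted p of 1.

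Of 32 other genes of lactate, pyruvate and monocarboxylate transport, 28 passed the filter. After the lesion in wild type 5 rose and 7 fell, beside 26.5% of all features, and the list's median of -0.03 log2 equals that of all features. Slc16a10, an aromatic amino acid transporter of the same family, rose by 0.74 ± 0.15 (adjusted p = 0.0017), and Pdk4, a kinase that inactivates pyruvate dehydrogenase, by 0.55 ± 0.14 (adjusted p = 0.01). The phosphatases that reactivate pyruvate dehydrogenase were lower, Pdp1 at -1.46 ± 0.37 (adjusted p = 0.0084) and Pdp2 at -0.38 ± 0.12 (adjusted p = 0.026). The D-lactate dehydrogenase Ldhd (-0.70 ± 0.16, adjusted p = 0.0051) and the mitochondrial pyruvate carrier subunit Mpc2 (-0.42 ± 0.14, adjusted p = 0.035) fell too.

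In the other comparisons 0 of these 28 passed in the separate-channel fit. For the lesion in transgenic mice the smallest p were those of Slc16a10 (0.41, adjusted p = 0.08), Slc16a9 (0.80, 0.08) and Slc16a6 (0.65, 0.11). For TC minus WTC they were those of Pdk4 (-0.41, 0.18), Pdhb (0.30, 0.19) and Pdha1 (0.42, 0.19), the last pair being subunits of pyruvate dehydrogenase. For T minus WT they were those of Slc16a4, Pcx and Slc16a6, each with an adjusted p of 1. The ratio fit called none of either list in any comparison.

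**Figure D4:**
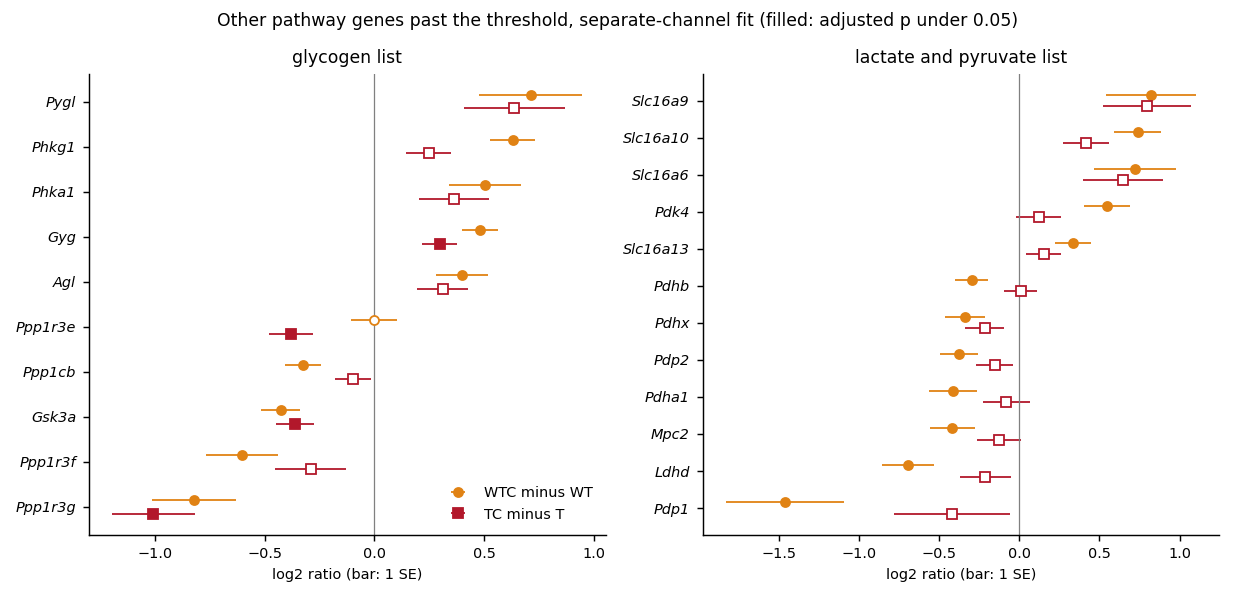
Log2 ratio (horizontal axis, with bars of 1 SE) in the separate-channel fit of the other pathway genes called in either lesion comparison, in wild type (WTC minus WT, circles) and transgenic mice (TC minus T, squares); filled symbols have an adjusted p under 0.05. Ppp1r3g and Gsk3a are filled below 0 in both comparisons, and Gyg above 0 in both.

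Markers of the cell types moved with the lesion. In whole cortex, fewer cells of a type and less RNA per cell cannot be told apart. In wild type, 5 of 8 astrocyte, 4 of 5 microglia and 4 of 5 blood myeloid markers were called higher in the separate-channel fit and none lower, while 1 of 6 neuron and 4 of 4 erythroid markers were called lower. In transgenic mice, 4 of 8 astrocyte, 2 of 5 microglia and 1 of 5 blood myeloid markers were called higher and 3 of 4 erythroid markers lower. All 6 neuron markers lay lower after the lesion in both genotypes (median -0.26 log2 in wild type and -0.23 in transgenic mice). All 6 striatum markers did too (-0.75 and -1.53), with 1 called, in wild type. All 5 choroid plexus markers lay higher in both (2.33 and 0.32), with 0 called. The part of these shifts in the results of the 10 genes was not tested. The mean microglia level was 11.34 to 11.94 in WT, 11.52 to 11.86 in T, 12.56 to 13.34 in WTC and 11.34 to 13.36 in TC, where the lowest is the Cy3 mouse of array I. For the blood myeloid list the medians were 8.46, 8.88, 10.69 and 9.63, and all 5 WTC mice lay above all 11 intact mice. Gfap, the defining astrocyte marker, was between 11.15 and 12.73 in intact and between 13.95 and 15.72 in lesioned mice. Rbfox3, the defining neuron marker, was present throughout at 14.26 to 15.49, and the skeletal muscle list stayed at or below 7.42, with its defining marker Ckm not above the filter.

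Within groups, after each group's mean was removed, Slc16a3 followed the microglia level (r = 0.73 over 22 mice), the blood myeloid level (r = 0.83) and the endothelium level (r = 0.70), and ran opposite to the neuron level (r = -0.62). Ldhb ran opposite to the microglia and blood myeloid levels (r = -0.77 and -0.69). Gys1 followed the endothelium level most closely among the marker lists (r = 0.74), then the microglia level (r = 0.57), and ran opposite to the neuron level (r = -0.60). Ldha followed the skeletal muscle level most closely (r = 0.76, and 0.80 without the mice of arrays K and M), a list at or below 7.42 in every mouse. Ppp1r3c followed the astrocyte level within groups (r = 0.81) and not the microglia (r = 0.12), striatum (r = -0.14) or choroid plexus level (r = -0.21). With group means left in, its correlation with the astrocyte level over 22 mice was 0.46. The median astrocyte level was 13.62 in WTC, where Ppp1r3c was not higher than in intact mice, and 13.44 in TC. The TC mouse of array C had the highest Ppp1r3c level (12.59) and the highest astrocyte level (13.81) of all mice. How far the astrocyte correlation rests on that mouse was not tested. Without the 4 mice of arrays K and M, the correlation with the microglia level was 0.79 for Slc16a3, -0.74 for Ldhb and 0.59 for Gys1. That of Ldhb with the blood myeloid level was then -0.26, and that of Ppp1r3c with the astrocyte level 0.81. For Slc16a3, those with the blood myeloid, endothelium and neuron levels were then 0.63, 0.62 and -0.37. For Gys1, those with the endothelium and neuron levels were then 0.61 and -0.32. Without the Cy3 mouse of array I, the correlations with the microglia level were 0.55 for Slc16a3, -0.56 for Ldhb and 0.42 for Gys1. These are descriptions over mice that share arrays and normalization. The part of these cell types in the differences of Slc16a3, Ldhb and Ppp1r3c was not tested.

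Between lesioned genotypes, where Ppp1r3c was called, 0 markers of any list were called, but several lists lay lower in TC throughout. All 5 choroid plexus markers were lower (median -2.09 log2), as were all 6 striatum markers (-1.51), all 5 microglia markers (-0.54), all 5 blood myeloid markers (-0.49) and all 6 oligodendrocyte markers (-0.38). The choroid plexus level lay between 7.68 and 13.15 in TC and between 9.18 and 13.16 in WTC, and the striatum level between 9.28 and 11.84 and between 9.05 and 12.64, so single mice of a group differed widely in both. The neuron list had a median of 0.02 and the astrocyte list one of -0.19. Between intact genotypes, all striatum (median -0.80), choroid plexus (-0.43) and oligodendrocyte markers (-0.35) were likewise lower in T than in WT. There, 4 of 5 microglia and 4 of 5 blood myeloid markers were higher in T. The part of these differences in the Ppp1r3c result was not tested.

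**Figure D5:**
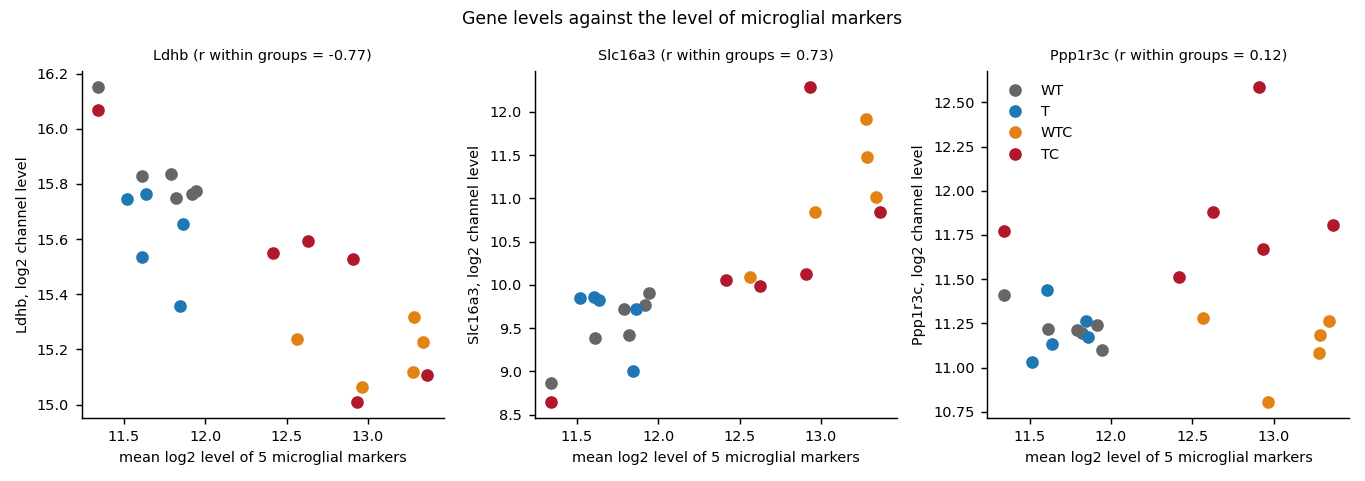
Log2 level of Ldhb, Slc16a3 and Ppp1r3c (vertical axes) against the mean log2 level of 5 microglia markers (horizontal axis), with 1 point per mouse coloured by group. Ldhb is lower and Slc16a3 higher in mice with a higher microglia level, and Ppp1r3c is high in TC mice over the whole range of it.

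The genes were also followed against each other. Over 22 mice, Slc16a3 ran opposite to Ldhb (r = -0.82, and -0.70 within groups) and with Gys1 (r = 0.82, and 0.73 within groups). Without the 4 mice of arrays K and M the within-group correlations were -0.42 and 0.48. Among 16005 genes with a symbol, those nearest to Ppp1r3c were Kdelr3 (r = 0.918) and 1700003F12Rik (r = 0.915), both among the 8 features that were highest in every TC mouse. Nearest to Slc16a3 were Rnpep (0.959) and Wwp2 (0.954), and nearest to Ldhb were Rtl8c (0.958) and Rtl8b (0.957). For Gys1 they were Hrob (0.951) and Col16a1 (0.943), for Gbe1 Fzd10 (0.912) and Ndufs6 (0.908), for Pygb Smpd2 (0.932) and Tex2 (0.931), and for Pygm Dhrs13 (0.951) and Ttc39a (0.921). Ldha was nearest to Fhl2 (0.905) and Inka2 (0.903), and Slc16a1 had no close neighbour, with Fkbp8 (0.758) and Olfr1030 (0.749) first. These neighbours were found over all 22 mice, which share arrays, and the correlations carry no test. Without the mice of K and M they lay between 0.702 and 0.946, leaving out Slc16a7.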

How the data were processed

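The authors deposited Agilent Feature Extraction 10.7.3.1 output of 11 arrays, per the file headers. Its median pixel values of spots and local background are deposited as linear intensity, not yet normalized, and its log10 ratio, per the file headers of processed red over green signal, served as an alternative. The authors' deposited table holds ratios, read here as log2 though the table states no log base, and adjusted p-value columns for 3 comparisons, made with limma per the submitters' processing notes; the limma version there is not stated. That table's WTC minus WT adjusted p-value column has 766 cells above 1 and was not read.

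In limma 3.58.1 (R 4.3.3), background was corrected with normexp (offset 50) and ratios were normalized by loess within arrays, with control and outlier spots at weight 0. A probe had to be well above background in 5 or more of the 22 channels, and the brightest probe stands for a gene. The ratio fit (lmFit, eBayes, dye term, 26082 features) has 7 residual degrees of freedom. The separate-channel fit (Aquantile, lmscFit, dye term, intraspot correlation 0.318, 25965 features) has 17. Levels are its log2 channel values with the dye effect removed. The RefSeq gene table gave a symbol to 26762 of 55681 probes (48.1%). Both fits were tested on simulated data. Groups follow the titles.

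All 10 genes are reported; of the pathway lists, genes past the threshold (at most the 6 with the smallest p) or else the 3 with the smallest p; for likeness, the 2 genes with the highest correlation. The genes and lists were chosen with earlier results of these data known. Alternatives changed background, normalization, filter, probe choice, dye term, slide, labels and the arrays or mice included. A planned comparison of protein sequences was not run.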

Additional observations from a re-analysis of the deposited data

Results flagged for a closer look

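In 40 groups of mice (10 genes in 4 groups), the highest or lowest mouse was compared with its nearest neighbour, relative to the group's range; chance sets apart about 1 in 20 such groups, and 4 were. The Ppp1r3c level of the TC mouse of array C was 12.59, against 11.51 to 11.88 in the other 5. The Ldha level of the TC mouse of array I was 14.91, against 15.58 to 15.92 in the other 5. The Ldhb level of the WT mouse of array A was 16.15, against 15.75 to 15.84 in the other 5. The Slc16a3 level of the T mouse of array J was 9.01, against 9.72 to 9.86 in the other 4.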

How the results depend on the processing

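Of 100 fitted ratios (10 genes, 5 comparisons, both fits), 47 lay within 1 standard error of 0, have no direction, and passed under none of their 1121 alternatives (smallest adjusted p 0.059). The other 53 kept their direction under 1248 of 1259 alternatives. Mice were paired by array only, and both fits use that pairing; the labels share no replicate number between groups, so no further block was fitted.

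Leaving out 1 array at a time, the number of the 10 genes called in the separate-channel fit was 1 to 3 for WTC minus WT, 0 to 2 for TC minus T and 0 to 2 for TC minus WTC, and in the ratio fit 0 to 1 for WTC minus WT. Features called by the separate-channel fit were 3205 to 7964 (WTC minus WT), 178 to 2836 (TC minus T), 2 to 954 (TC minus WTC) and 0 to 1 (difference of responses). Those of the ratio fit were 0 to 1583, 0 to 6 and 0 to 2 for the first 3.

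Channel labels in place of titles left 4195 features in WTC minus WT, 0 in TC minus T and 17 in TC minus WTC in the separate-channel fit, with 0 of the 10 genes in each of the last 2, and 0 and 3 features in the ratio fit (WTC minus WT, TC minus WTC); Slc16a3 turned to -0.19 and Pygm (ratio fit) to -0.027 in TC minus T, and Ldha to 0.029 in the difference of responses. Without arrays I, J and K, the counts were 1749 features and 2 genes (ratio fit, WTC minus WT), 1080 features in TC minus T, and 62 features and 0 genes in TC minus WTC, and Pygm turned to -0.30 in TC minus T (ratio fit).

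Slide as a block gave 3433 features and 1 gene in WTC minus WT, 900 features in TC minus T and 91 in TC minus WTC. Slide 1 alone gave 2159 features and 3 genes in the ratio fit (WTC minus WT), and in the separate-channel fit 1006 features and 2 genes (TC minus T), 152 features (TC minus WTC), and 85 features and 1 gene (difference of responses); its lone TC mouse is assumed to vary like the other groups. There Pygb was -0.040 in TC minus T (ratio fit), and Pygm 0.058 (ratio fit) and 0.045 in T minus WT. Slide 2 alone gave 0 features and 0 genes in TC minus T and in TC minus WTC.

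With array as a random block and without the 4 mice of arrays K and M (chosen after seeing the data), there were 1241 features in TC minus T, 1929 features and 3 genes in TC minus WTC and 491 features and 1 gene in the difference of responses, and Slc16a3 was -0.043 in TC minus T. Without the Cy3 mouse of array I there were 3274 features and 2 genes in TC minus T and 2 features in the difference of responses.

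Median centring moved the median of all features to -0.105 log2 in WTC minus WT (ratio fit), where it left 0 features and Pygb at -0.076. In the separate-channel fit it gave 2401 higher and 5695 lower calls in WTC minus WT (3708 and 3178 with loess), 1233 and 212 in TC minus T (1222 and 687 with loess), and 2 genes called in the latter. In the ratio fit, WTC minus WT had 1 feature (6 as reported) with the mean over probes, with no filter on dim probes and with the processed log ratio. Without a dye term TC minus WTC had 17 features. The second Gys1 probe gave -0.010 (ratio fit) and -0.10 in WTC minus WT. The causes of these changes were not tested.

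Slc16a1 and Slc16a7, under 3 times background, have the least reliable ratios, and 11 arrays limit the precision of all.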
